A study of Mus musculus with 4 samples.

Results

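The aquaporins *Aqp1*, *Aqp2* and *Aqp9* were examined as 3 rows, chosen by name, of a table of 16892 genes counted in 8880 single cells of the mouse epididymis and vas deferens. All 3 rows were found. The table holds 7 other aquaporin rows, *Aqp3* to *Aqp8* and *Aqp11*, which are given at the end. Levels were followed across 7 cell types, across the 34 populations of the deposited annotation (15 of them principal cells, numbered from the caput to the vas deferens), and across 4 libraries.

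Aquaporins are membrane channels through which water crosses cells along an osmotic gradient. *Aqp1* encodes a water channel of blood vessel endothelium, red blood cells and several fluid-moving epithelia, the efferent ducts among them. *Aqp2* encodes the water channel that vasopressin moves to the apical membrane of principal cells in the kidney collecting duct, and *Aqp9* encodes an aquaglyceroporin that passes glycerol and other small uncharged solutes besides water and is known from the apical membrane of epididymal principal cells. In the excurrent ducts, sperm pass from the caput through the corpus and cauda into the vas deferens, and fluid taken up by the epithelium on the way concentrates them.

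The tissue came from adult male FVB/NJ mice of 10 to 12 weeks. The labels name no altered allele and no treatment, and the groups differ only in the region of the duct. Per the study's methods, 8 epididymides from 4 mice were pooled, cleared of sperm as far as possible and cut into caput, corpus, cauda and vas deferens, and a single 10x library that reads the 3' ends of transcripts was made of each. Every group is thus 1 library of pooled animals. There are no replicates and no test between regions, and a difference between regions cannot be told apart from a difference between libraries. The cut between regions only roughly followed the anatomy.

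The libraries held 1433 to 3506 cells and 4408989 to 10744928 unique molecular identifiers (UMIs, each standing for 1 captured RNA molecule), with 1433 to 2207 UMIs in the median cell. In all, 43 cell barcodes occurred in 2 libraries, which touched 86 cells. A level is given in UPM, the UMIs of a gene per 1000000 UMIs of all genes in the same cells. Brackets hold 95% intervals for counting error alone, by the exact Poisson method for a level, by the exact binomial method conditional on the sum for a ratio of levels, and by Clopper-Pearson for a share. Where a group had 0 UMIs, the level that 3 UMIs would have made is given as the limit. For the share of positive cells, those with a UMI of the gene, 1000 UMIs were first drawn from each cell and shallower cells were left out, since deeper cells show more genes.

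The cell types in which the members were highest carried their markers. All 6 endothelial markers (*Emcn*, *Icam2*, *Cd34*, *Tm4sf1*, *Pecam1* and *Cdh5*) were highest in the endothelial cells, of which 211 of 245 had a UMI of at least 1 of them. In principal cells, *Gpx5*, a caput marker, stood at 57990 UPM in the caput library and at most 16.1 in the others. *Akr1b7*, an aldo-keto reductase of the vas deferens, stood at 51317 UPM in the vas deferens library and at 4.06, 31.0 and 432 UPM in the caput, corpus and cauda.

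*Aqp2* was detected in the principal cells of the vas deferens and hardly elsewhere. The gene (ENSMUSG00000023013) lies at chr15:99579055-99584547 on the plus strand of GRCm38, the assembly the files use. The level in principal cells was 2728 UPM (2681 to 2776) in the vas deferens library, from 12775 UMIs, 19.0 (13.1 to 26.6) in the cauda, from 33 UMIs, 0.580 (0.0147 to 3.23) in the caput, from 1 UMI, and 0 of 1418794 UMIs in the corpus, which allows up to 2.11 UPM. No other interval came near that of the vas deferens, which was 144 times the cauda (102 to 209). Of all 13013 *Aqp2* UMIs, 98.2% were in principal cells of the vas deferens library.

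A gene was read in principal cells when any library held 20 of its UMIs there, which 9854 genes did. A rule for the vas deferens asked for 20 UMIs and for 4 times the level in each of the other libraries, none of which was set below 3 UMIs, and 143 genes (1.45%) met it. *Aqp2* was one of them and ranked 3 of 9854 by the ratio to the highest other library. By level it ranked 37 of the 16892 genes in vas deferens principal cells.

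The 250 bases before the RefSeq start of *Aqp2* (chr15:99578806-99579055, plus strand, GRCm38.p6) are shown because *Aqp2* is the member whose level in its main cell type differed most between libraries. Capitals mark, from the 5' end, the core of a cAMP response element (TGACG, on either strand), a GATA factor motif (AGATAA, on either strand) and a TATA motif (TATAAA, or its variant TATAAG, on the strand of the gene only).
Aqp2: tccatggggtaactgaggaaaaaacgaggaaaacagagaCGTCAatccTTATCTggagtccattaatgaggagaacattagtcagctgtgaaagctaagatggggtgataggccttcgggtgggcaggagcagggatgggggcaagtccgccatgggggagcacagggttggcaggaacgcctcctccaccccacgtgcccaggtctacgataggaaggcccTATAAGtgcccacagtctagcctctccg
The matches start 211, 202 and 28 bases before the start. Of 32851 windows of the same length before RefSeq starts, 17.8%, 9.99% and 11.2% hold a match to these motifs, whose letters were chosen with the *Aqp2* sequence in view. The 3' tags do not show which start a transcript used, so a match describes the letters and nothing more. The window before the start of *Aqp1* holds no match to any of the 3. The same is true of *Crygc*, *Crygb*, *Eci3* and *D630023F18Rik*, whose levels resembled those of *Aqp2* most (given further on with *Kcnj16*, of whose 4 windows 1 holds a GATA and a TATA match).

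Along the 15 principal populations, *Aqp2* stepped up within a single population. It was at 0 in principal 2 to 6 and 10, which allows from 3.55 UPM (principal 2) up to 26.1 UPM (principal 4). In principal 1, 7, 8 and 9 it was at 1.96, 10.9, 7.12 and 30.5 UPM. All 7 UMIs of principal 7 lay in its 1 vas deferens cell, with 0 in its 346 corpus cells. Of the 12 UMIs of principal 9, 10 lay in its 26 vas deferens cells (75.9 UPM, against 7.69 in its cauda cells). Principal 11, which held 141 cauda and 100 vas deferens cells, was at 437 UPM (371 to 510.1). In principal 12, 13, 14 and 15, made almost wholly of vas deferens cells, the level was 2685 (2608 to 2763), 2862 (2774 to 2952), 2872 (2721 to 3028) and 3186 UPM (3065 to 3310). The last 4 populations lie within a 1.19-fold range (1.13 to 1.25 for principal 15 over principal 12). The intervals of the neighbours principal 13 and 14 overlap, as do those of principal 12 and 14. Ratios of these pairs were not computed, and overlap alone does not show equal levels.

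The mixed population principal 11 allowed the 2 libraries to be set side by side within 1 population. Its vas deferens cells had 153 *Aqp2* UMIs, in 19 of 100 cells, and stood at 1440 UPM (1221 to 1688). Its cauda cells had 5 UMIs, in 5 of 141 cells, and stood at 19.7 UPM (6.38 to 45.9). The vas deferens cells were thus 73.3 times higher (30.7 to 229) although the annotation had placed both in the same population. The other vas deferens principal cells were 1.91 times higher still (1.63 to 2.26).

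In the cauda library, 20 of the 33 *Aqp2* UMIs lay in 3 of the 7 cauda cells that the annotation put in principal 12 and 13. A single cell, called a doublet from simulated doublets, held 15 of them, and without called doublets the vas deferens level was 257 times that of the cauda. In the other direction, 50 vas deferens cells fell in principal 8, 9 and 10, populations mostly of the cauda, and 2 of these had *Aqp2*, with 10 UMIs in all. Whether such cells came from the labelled region or from the neighbouring one was not tested.

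**Figure D1:**
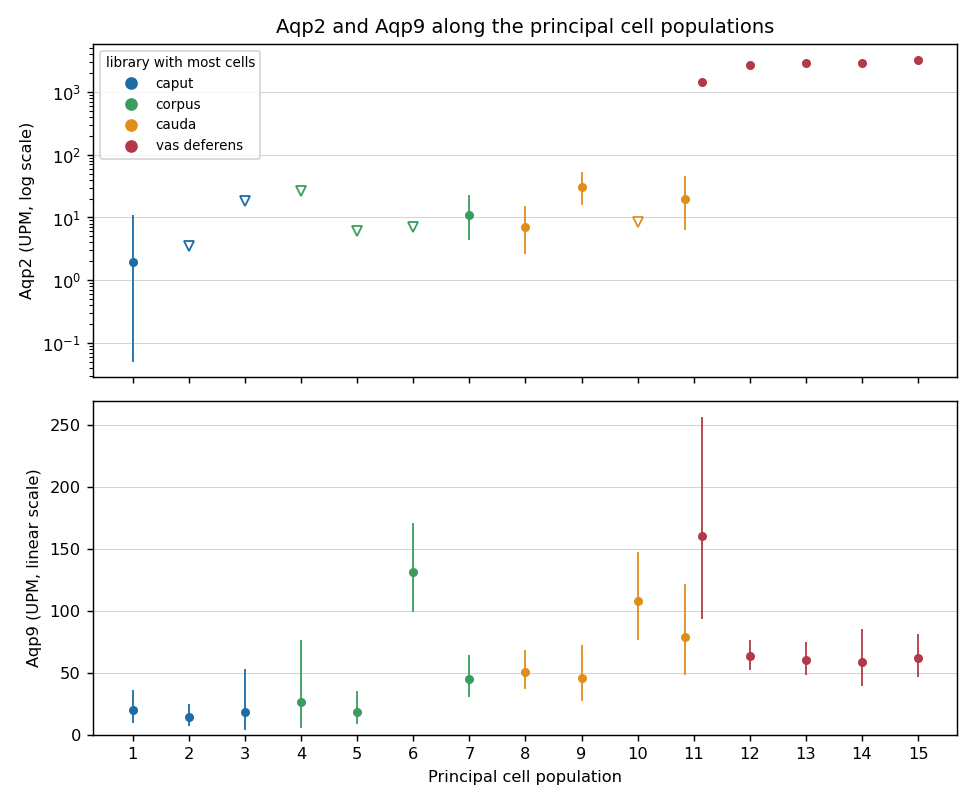
Level (UPM) of *Aqp2* (upper panel, log axis) and *Aqp9* (lower panel, linear axis) in the 15 principal populations, coloured by the library with the most cells, with principal 11 split into its cauda and vas deferens cells. Points are summed levels, bars 95% Poisson intervals and open triangles populations with 0 UMIs drawn at the level of 3 UMIs. All 7 *Aqp2* UMIs of principal 7 lie in 1 vas deferens cell. *Aqp2* stands at 1440 to 3186 UPM in the vas deferens cells of principal 11 and in principal 12 to 15, and at or below 30.5 in the other points, while *Aqp9* is at 14.2 to 26.1 in principal 1 to 5 and higher from principal 6 on.

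Among vas deferens principal cells drawn to 1000 UMIs, 482 of 773 had *Aqp2* (62.4%, 58.8 to 65.8), with 587 shallower cells left out. Without drawing, 757 of 1360 did (55.7%). Immune cells of the same library, which should lack the gene, showed it in 3 of 91 drawn cells (3.30%, 0.685 to 9.33) and in 6 of 118 undrawn ones (5.08%), at a median depth of 2368 UMIs against 1286.5 for the principal cells. Principal cells of the caput had it in 0 of 342 drawn cells, which allows up to 0.877%, those of the corpus in 0 of 346, which allows up to 0.867%, and those of the cauda in 6 of 433 (1.39%).

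The share of cells rose with depth. Among undrawn vas deferens principal cells, 26.1% of those under 700 UMIs had *Aqp2*, against 54.6% at 1000 to 2000 UMIs and 88.1% at 8000 or more. The level moved less, between 1972 and 3039 UPM over 6 ranges of depth, lowest in the shallowest and highest in the deepest cells but not in order between. In the 565 positive cells of at least 1000 UMIs, the level per cell had a median of 2566 UPM and quartiles of 1249 and 4580, and the highest cell stood at 25116 UPM. Of all the *Aqp2* UMIs in these principal cells, 63.5% were in the top 136 of the 1360 cells, and 1 cell held 258.

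The counts themselves carry a mark of the processing. In the vas deferens library no cell of any type had exactly 1 *Aqp2* UMI, while 175 had 2, 96 had 3 and 62 had 4. In the cauda library, by contrast, 10 of the 13 positive cells had exactly 1. *Aqp1* and *Aqp9* kept their cells with 1 UMI in the vas deferens library, 82 and 161 of them. Such a gap was seen in 248 of the 12063 genes (2.06%) that had 20 or more UMIs there. The authors took UMIs they judged to be ambient RNA out of each cell before deposit, and the part of this step in the missing counts was not tested. Counting only cells with 2 or more UMIs, which drops no vas deferens cell and 10 of the 13 cauda cells, *Aqp2* was in 757 of 1360 vas deferens principal cells, 3 of 931 in the cauda and 0 of 736 and of 929 in the caput and corpus.

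**Figure D2:**
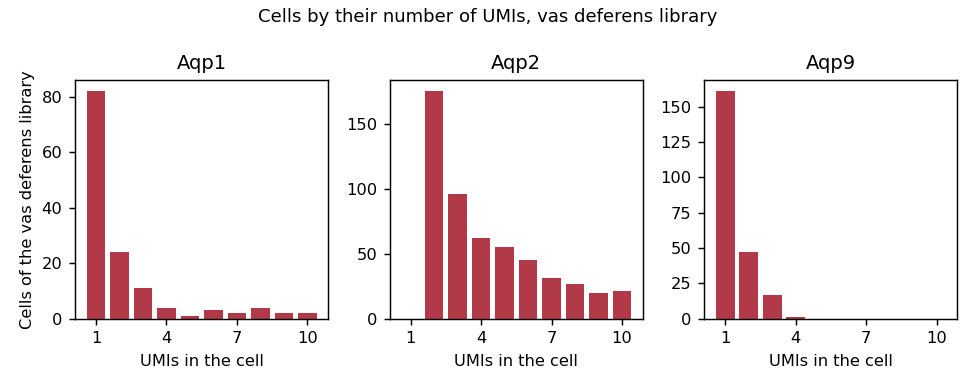
Number of cells of the vas deferens library, all types together, with 1 to 10 UMIs of *Aqp1*, *Aqp2* and *Aqp9*; the y axes differ. *Aqp1* and *Aqp9* are most often seen as 1 UMI (82 and 161 cells), whereas no cell has 1 *Aqp2* UMI and 175 have 2.

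Cells of the vas deferens library outside the principal class carried a low level of *Aqp2*. It was 21.5 UPM in basal, 26.4 in endothelial, 31.7 in muscle, 38.7 in immune, 40.3 in stromal and 60.1 in clear cells, or 0.787% to 2.20% of the principal level. In the other 3 libraries, 2778 cells outside the principal class had 0 *Aqp2* UMIs of 11012756, which allows up to 0.272 UPM. Per 100 UMIs of *Akr1b7*, the leading vas deferens transcript used as a yardstick, there were 5.32 *Aqp2* UMIs (5.22 to 5.41) in principal cells, and endothelial and immune cells, at 5.61 (2.85 to 10.0) and 6.63 (3.47 to 11.6), did not differ from that beyond counting error. Stromal cells had more, at 9.43 (7.61 to 11.6), and muscle, basal and clear cells fewer, at 3.64 (2.58 to 4.98), 2.19 (1.46 to 3.17) and 1.42 (0.647 to 2.72). In stromal cells, 1 cell held 25 of the 101 UMIs. How much of these UMIs is free RNA was not tested.

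A list of 15 genes known from collecting duct principal cells, written down for the comparison with *Aqp2*, was read in the same contrast. It was chosen with earlier results of these data known. The study itself names *Fxyd4* together with *Aqp2* among transporters of the vas deferens. The counts below thus only describe the list. Of the 13 in the table, 8 had at least 20 UMIs, and 3 of these 8 met the rule for the vas deferens that 1.45% of all genes met. They were *Fxyd4*, a regulator of the sodium pump (2999 UPM in the vas deferens and 91.4 in the cauda), *Elf5*, an ETS transcription factor (40.6 and 8.05), and *Tmem45b* (17.7 and 4.02). The median log2 ratio of the vas deferens to the highest other library was 0.68 over the 8 genes and -0.31 over all genes tested.

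Other members of the list did not follow *Aqp2*. *Gata3* and *Gata2*, transcription factors of the collecting duct, were highest in the vas deferens at 226 and 177 UPM, but the cauda was close at 118 and 133. *Scnn1a*, a sodium channel subunit, was lowest there, with 2 UMIs (0.427 UPM) against 7.75 to 13.2 UPM in the other libraries. These are levels in principal cells, and 242 of the 367 *Scnn1a* UMIs lay in clear cells (166 UPM, against 5.96 in principal cells). *Scnn1b*, *Scnn1g* and *Hsd11b2*, which with *Scnn1a* make up aldosterone-driven sodium uptake, had 1 UMI each over all principal cells, and *Aqp4* had 0. *Nr3c2*, the mineralocorticoid receptor, stood at 6.19 UPM in the vas deferens and 7.54 in the caput.

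Genes that carry Aqp2 protein to and from the membrane in the kidney were read in the same way. Of 24 on the list, 23 were in the table and 21 were read, of which 0 met the rule that 1.45% of all genes met, a count too near that share to say anything of the list. The median log2 ratio of the vas deferens to the highest other library was 0.00, against -0.31 over all genes, and 10 of the 21 were highest in the vas deferens, as were 35.8% of all genes. The highest ratio was that of *Rab11a*, a small GTPase of recycling endosomes, at 2.86 (244 UPM against 85.3 in the caput), followed by *Snap23* at 2.12 and *Vamp8* at 2.02, both parts of the membrane fusion machinery. The lowest was that of *Myo5b*, a motor for these vesicles, at 0.253 (25.0 UPM against 98.6 in the caput). *Adcy6*, an adenylate cyclase, was at 12.2 UPM in the vas deferens and 23.2 to 31.7 in the other libraries.

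*Aqp9* was detected in principal cells of all 4 libraries. The gene (ENSMUSG00000032204) lies at chr9:71110659-71168682 on the minus strand of GRCm38. Its level in principal cells was 18.0 UPM (12.2 to 25.5) in the caput library, from 31 UMIs, and 59.9 UPM (47.9 to 74.1) in that of the corpus, from 85. It was 69.6 UPM (57.7 to 83.1) for the cauda, from 121, and 63.0 UPM (56.0 to 70.6) for the vas deferens, from 295. The caput was the low one. Its interval lies below all others, and the other 3 libraries together were 3.55 times higher (2.47 to 5.28). The corpus, cauda and vas deferens did not differ beyond counting error, with the cauda 1.10 times the vas deferens (0.886 to 1.37) and 1.16 times the corpus (0.872 to 1.55). Of the 9854 genes read, 449 (4.56%) were at least 2 times higher in every other library than in the caput, and *Aqp9* was one of these.

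*Aqp9* was higher in principal 6 than in principal 5, both mostly of corpus cells. Principal 1 to 5 stood at 14.2 to 26.1 UPM with intervals that all overlap, and principal 6, a corpus population, stood at 132 UPM (99.4 to 171). Summed after these values were seen, principal 6 to 15 were 3.81 times principal 1 to 5 (2.73 to 5.48). The same cut within the corpus library set cells of principal 6 to 15 at 77.3 UPM, from 79 UMIs. Its cells of principal 1 to 5 stood at 15.1 UPM, from 6 UMIs, a ratio of 5.12 (2.25 to 14.4). As the cut was placed on the same UMIs, this ratio only describes it. Of the 79 UMIs, 51 lay in principal 6 (125 UPM) and 27 in principal 7 (45.0 UPM). Over all libraries, the intervals of principal 7 and 9 (30.2 to 64.7 and 27.2 to 72.4 UPM) overlap those of principal 1, 3, 4 and 5. Principal 1 to 5 cells of the corpus and the caput did not differ beyond counting error (ratio 0.840, 0.286 to 2.04).

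*Aqp9* also varied among the later populations. After principal 6, the highest were principal 10 at 108 UPM (76.2 to 148) and principal 11 at 105 UPM (74.3 to 144), both mostly of cauda cells. Principal 7, 8 and 9 were lower, at 45.0, 51.0 and 45.8 UPM, and principal 6 was 2.92 times principal 7 (1.83 to 4.74). In the corpus library alone the same ratio was 2.77 (1.71 to 4.6). Principal 12 to 15 lay close together, at 59.0 to 63.6 UPM. In the mixed principal 11, *Aqp9* stood at 160 UPM in vas deferens and 78.6 UPM in cauda cells, a ratio of 2.04 (1.002 to 4.09) on 17 and 20 UMIs.

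RefSeq gives *Aqp9* a pair of starts, and the windows before them (chr9:71163290-71163539 and chr9:71162634-71162883, minus strand, GRCm38.p6) hold no match to any of the 3 motifs marked in *Aqp2*. As with *Aqp2*, the tags do not show which start was used.

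Outside principal cells, *Aqp9* was near the floor. Over all libraries the principal level was 55.6 UPM (51.0 to 60.6), and the next type, immune cells, had 3 UMIs, or 5.15 UPM, a ratio of 10.8 (3.67 to 52.5). Clear, basal, muscle and stromal cells stood at 3.42, 3.07, 1.97 and 1.70 UPM. Endothelial cells had 0 of 835338 UMIs, which allows up to 3.59 UPM. *Aqp9* met the rule of 4 times every other type, which 251 of 12868 genes (1.95%) met in principal cells. Without the vas deferens library the lead over immune cells was 3.98 times, just under the rule. Immune cells had 0 UMIs in each library left, so this ratio is to the floor of 3 UMIs. Within the caput, corpus and cauda libraries, principal cells stood 7.52, 10.5 and 17.6 times above the next type, which had 2, 14 and 1 UMIs. Within the vas deferens library the margin was narrower, since 4 UMIs in 38 clear cells made 26.7 UPM there, and the ratio of principal to clear cells was 2.36 (0.912 to 8.72).

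Each cell held few *Aqp9* molecules. No cell had more than 4 UMIs, and 299 of the 401 positive principal cells (74.6%) had exactly 1. Drawn to 1000 UMIs, 105 of 1894 principal cells had the gene (5.54%, 4.56 to 6.67), with 2062 left out, against 10.1% undrawn. By library the drawn share was 2.63% for the caput, 7.23% for the corpus, 6.70% for the cauda and 5.43% for the vas deferens. Muscle cells, which should lack the gene, showed it in 2 of 363 drawn cells (0.551%, 0.0668 to 1.98) at a median depth of 1803 UMIs, against 934.5 in principal cells. The caput interval (1.21 to 4.94) overlaps that of muscle cells, and the other 3 libraries' lower bounds (4.73, 4.53 and 3.94) lie above it. By level the caput was apart from muscle as well. Its principal cells stood at 18.0 UPM (12.2 to 25.5) and muscle cells of all libraries at 1.97 UPM (0.406 to 5.75). Undrawn, the share rose from 2.11% of cells under 700 UMIs to 38.2% at 8000 or more, while the level was 52.0 and 52.9 UPM in these ranges and 38.1 to 64.6 UPM over all 6, so that the share follows depth and does not give the share of cells that express the gene.

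The genes around glycerol and around *Aqp9* were read in principal cells by the same measure of the lowest other library over the caput, which was 3.33 for *Aqp9* and had a median of 0.730 over all genes tested. For 9 genes of glycerol handling, 6 of the 8 in the table were read, 0 met the rule at 2 times that 4.56% of all genes met, and the median was 1.24. *Lipe*, the hormone-sensitive lipase that frees glycerol from stored fat, had the highest value at 1.82 (4.64 UPM in the caput, 8.46, 17.8 and 23.9 in the others). *Mgll*, the lipase of the last step, was the most abundant in the vas deferens (479 UPM, against 77.7 for the caput, 249.5 for the corpus and 102 for the cauda). *Gpd1*, glycerol-3-phosphate dehydrogenase, ran the other way, from 57.4 UPM in the caput to 34.5, 13.2 and 2.14.

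Of 5 partners and regulators of *Aqp9*, 4 were read and 1 met the rule that 4.56% of all genes met. It was *Slc9a3r1*, a scaffold that links membrane proteins to the cytoskeleton, which had 36.0 UPM for the caput, 185 for the corpus, 390.3 for the cauda and 158 for the vas deferens. *Ezr*, its cytoskeletal partner, was at 290 to 476 UPM throughout. *Cftr*, the chloride channel, had its 35 UMIs in the caput (29 UMIs, 16.8 UPM) and corpus (6 UMIs, 4.23 UPM) and 0 in the cauda and vas deferens. *Aqp9* was high in the corpus as well as in the cauda and vas deferens.

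*Aqp1* was highest in endothelial cells in every library. The gene (ENSMUSG00000004655) lies at chr6:55336432-55348555 on the plus strand of GRCm38. Over all libraries it stood at 654 UPM (599.9 to 711) in the 245 endothelial cells, from 546 UMIs. By library the level was 473 UPM (367 to 601) for the caput, 627 (512 to 760.1) for the corpus, 1218 (981 to 1496) for the cauda and 627 (556 to 704) for the vas deferens. The caput, corpus and vas deferens overlap, and the cauda stands above them, at 1.94 times the corpus (1.45 to 2.60) and 2.57 times the caput (1.86 to 3.58). The cauda level rests on 12 cells and 91 UMIs, and its interval does not cover differences between cells.

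Muscle cells came next, at 87.9 UPM (73.6 to 104), and endothelial cells stood 7.44 times higher (6.15 to 9.05). *Aqp1* met the rule of 4 times every other type, which 183 of 12868 genes (1.42%) met in endothelial cells. Without the vas deferens library the lead over muscle was 3.35 times, and the rule was no longer met. Stromal and basal cells stood at 15.6 and 12.1 UPM, immune cells at 5.15 (3 UMIs) and principal cells at 0.523 (5 UMIs). Clear cells had 0 of 1461705 UMIs, which allows up to 2.05 UPM. Markers of some other cells were scarce among the endothelial cells, with 4 UMIs over 5 red blood cell genes and 1 UMI over 3 genes of ciliated cells, found in the efferent ducts. Markers of other efferent duct cells were not read.

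**Figure D3:**
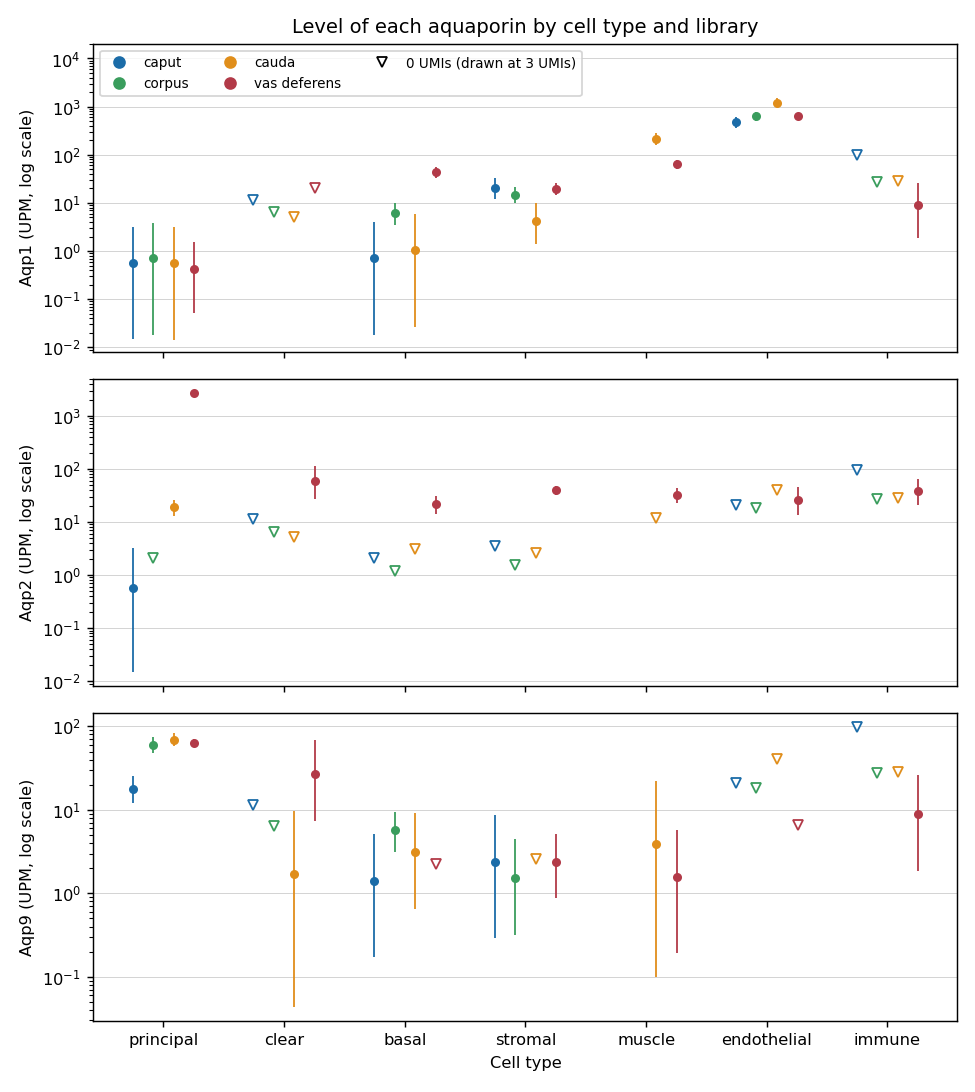
Level (UPM, log axes) of *Aqp1*, *Aqp2* and *Aqp9* in the 7 cell types, with 1 point for each library and its 95% Poisson interval; open triangles are groups with 0 UMIs, drawn at the level of 3 UMIs, and groups under 10 cells are left out. *Aqp1* peaks in endothelial cells of all 4 libraries (473 to 1218 UPM), *Aqp2* in vas deferens principal cells (2728 UPM) and *Aqp9* in principal cells (18.0 to 69.6 UPM).

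Drawn to 1000 UMIs, 61 of 200 endothelial cells had *Aqp1* (30.5%, 24.2 to 37.4), with 45 left out, against 34.7% undrawn. Basal cells, which should lack the gene, showed it in 6 of 1155 drawn cells (0.519%, 0.191 to 1.13) at a median depth of 4333 UMIs, against 2590 in endothelial cells. Most of the *Aqp1* UMIs of basal cells lay in a few cells with endothelial markers, described further on. The drawn share was 24.3% for the caput, 31.3% for the corpus, 81.8% (9 of 11 cells, 48.2 to 97.7) for the cauda and 27.5% for the vas deferens. All 85 undrawn positive cells were among the 211 endothelial cells with a UMI of an endothelial marker, and 0 of the 34 without such a UMI had *Aqp1*. The positive cells had a median of 4 *Aqp1* UMIs and at most 29, and 25 cells held 66.3% of the UMIs.

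**Figure D4:**
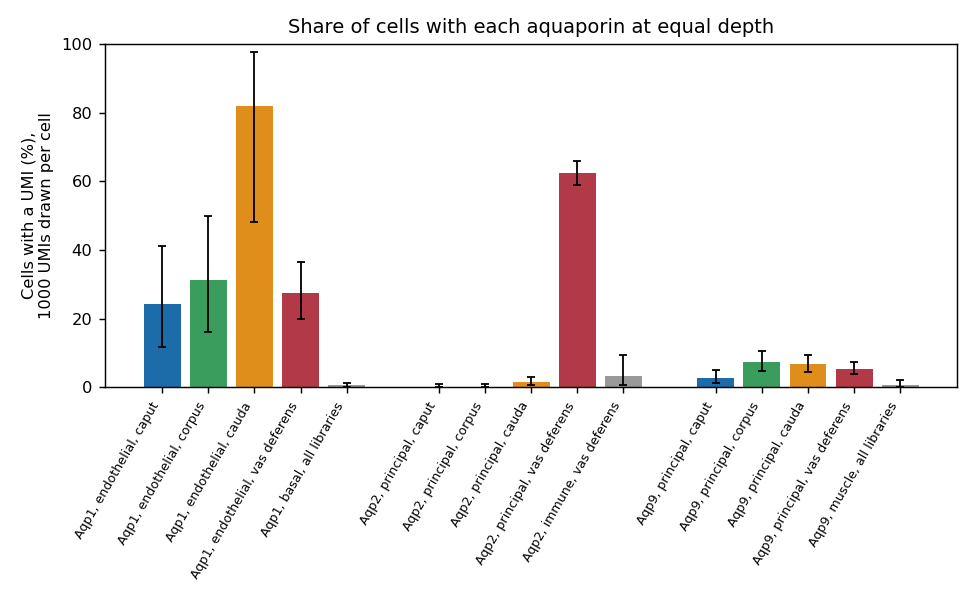
Share of cells (%) with a UMI of *Aqp1*, *Aqp2* or *Aqp9* after 1000 UMIs were drawn from each cell, by library, with 95% Clopper-Pearson intervals; grey bars are a cell type that should lack the gene. The share is 62.4% for *Aqp2* in vas deferens principal cells, 24.3% to 81.8% for *Aqp1* in endothelial cells and 2.63% to 7.23% for *Aqp9* in principal cells, and 0.519% to 3.30% in the grey bars.

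Within the drawn endothelial cells, *Aqp1* was found beside markers of several kinds of vessel. It was in 45 of 100 cells with a UMI of a capillary gene (*Rgcc*, *Esm1* or *Plvap*; 45.0%, 35.0 to 55.3), in 33 of 102 with a venous gene (*Selp*, *Vwf* or *Nr2f2*; 32.4%, 23.4 to 42.3) and in 10 of 31 with an arterial gene (*Sox17*, *Gja5* or *Edn1*; 32.3%, 16.7 to 51.4). Of 10 cells with a lymphatic gene (*Prox1*, *Lyve1* or *Mmrn1*), 1 had *Aqp1* (10.0%, 0.253 to 44.5). The intervals overlap, and a cell can count in more than 1 of these sets. Single genes of a set differed. *Aqp1* was in 10 of 27 cells with *Sox17* and 0 of 6 with *Edn1*, and 0 drawn cells had *Gja5*. Among capillary genes it was in 40 of 85 cells with *Plvap*, 13 of 32 with *Rgcc* and 1 of 9 with *Esm1*. Among venous genes it was in 33 of 95 cells with *Selp*, 5 of 15 with *Vwf* and 5 of 22 with *Nr2f2*. *Nr2f2* was higher in muscle and stromal cells (517 and 277 UPM) than in endothelial cells (127 UPM).

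Smooth muscle carried *Aqp1* at a lower level, higher in the cauda than in the vas deferens library. It stood at 213 UPM (160 to 278) in the 58 cauda cells, of which 27 were positive, and at 63.4 UPM (50.3 to 78.9) in the 437 vas deferens cells, of which 59 were, a ratio of 3.36 (2.33 to 4.80). The cauda cells were deeper, with a median of 4061 UMIs against 1761, and the drawn shares, 15.9% (6.64 to 30.1) and 6.94% (4.40 to 10.3), overlap. The 7 corpus cells had 0 UMIs, which allows up to 302 UPM, and the caput had no muscle cell. The difference was there in both muscle populations, at 3.96 (1.89 to 7.86) in the one labelled Muscle and 3.58 (2.31 to 5.51) in the one labelled MuscleGfra4. The summed level of the endothelial markers was 35.5 UPM in cauda muscle, from 9 UMIs in 2 cells, and 43.6 UPM in vas deferens muscle. It was 37.8 UPM in muscle cells with *Aqp1* against 47.9 in those without, while in endothelial cells it was 10389 UPM. The part of endothelial RNA in the difference was not tested.

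The *Aqp1* of basal cells was held by few cells. Of 75 UMIs, 67 were in 6 of the 1412 cells, 41 of them in 1 cell. Those 6 cells had endothelial markers at 22286 UPM and basal markers at 465 UPM, and 0 of the 6 was a called doublet. Basal cells without *Aqp1* had 641 and 3425 UPM, and endothelial cells 10389 and 346 UPM. *Itga6*, one of the basal markers, stood at 268 UPM in endothelial and 245 UPM in basal cells. Whether the 6 are endothelial cells was not tested. Without these 6, an alternative chosen after seeing the data, the basal level was 1.30 UPM. In stromal cells the 54 positive cells had endothelial markers at 1946 UPM against 299.6 UPM in the negative ones. Their highest population was StromalIL6, at 85.4 UPM (54.7 to 127), and in the population labelled Fibroblast the level was 0 of 552572 UMIs, which allows up to 5.43 UPM.

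The 3 genes were seldom found together, apart from *Aqp2* and *Aqp9* in the vas deferens. No cell had UMIs of both *Aqp1* and *Aqp9*, and 11 of the 247 cells with *Aqp1* also had *Aqp2*. *Aqp2* and *Aqp9* met in 167 cells, 162 of them vas deferens principal cells, which is 21.4% of the 757 cells with *Aqp2* and 76.4% of the 212 with *Aqp9* there. Drawn to 1000 UMIs, *Aqp9* was in 21 of 482 cells with *Aqp2* (4.36%) and in 21 of 291 without it (7.22%). At equal depth, and with all populations pooled, cells with *Aqp2* thus did not hold *Aqp9* more often. The populations differ in both genes. In vas deferens cells of principal 11, 8 of 28 drawn cells had *Aqp2* and 6 had *Aqp9*. The comparison was not split by population.

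The 5 genes whose levels over the 34 populations were most like each member were named by Pearson's r of log2(UPM + 10), as a description over points that share libraries. For *Aqp2* they were *Crygc* (r = 0.96), *Eci3* (0.95), *Kcnj16* (0.95), *Crygb* (0.94) and *D630023F18Rik* (0.93), all highest in principal 15. *Crygb* and *Crygc* encode lens crystallins and *Kcnj16* a potassium channel. For *Aqp1* they were *Gpm6a* (0.91), *Sncaip* (0.90), *Lama4* (0.89), *Ecscr* (0.89) and *Apbb2* (0.87), of which *Lama4*, a laminin chain of vessel and muscle basement membranes, was highest in Muscle and the others in endothelial cells. For *Aqp9* they were *Ces1e* (0.88), *Defb43* (0.88), *Nxpe3* (0.88), *Acbd7* (0.88) and *Spink8* (0.87), highest in 4 different principal populations.

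Of the 7 other aquaporins, *Aqp3* and *Aqp11* had over 100 UMIs and the rest 3 to 20. *Aqp3*, an aquaglyceroporin of basal membranes, was a gene of basal cells, at 30.4 UPM (26.2 to 35.1), or 4.59 times the next type, stromal cells (3.28 to 6.55). In basal cells it stood at 2.83 UPM for the caput (4 UMIs), 10.1 for the corpus (25 UMIs), 87.8 for the cauda (84 UMIs) and 55.5 for the vas deferens (75 UMIs). It was thus low at the caput end and high from the cauda on, with the cauda 8.66 times the corpus (5.48 to 14.1) and 1.58 times the vas deferens (1.14 to 2.19). *Aqp11*, an intracellular member, was highest in cauda principal cells at 29.9 UPM (22.3 to 39.2), against 7.54 for the caput, 13.4 for the corpus and 4.91 for the vas deferens. It was 6.09 times its vas deferens level (3.66 to 10.4), but over all libraries its principal and endothelial levels, 11.2 and 9.58 UPM, did not differ beyond counting error.

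**Figure D5:**
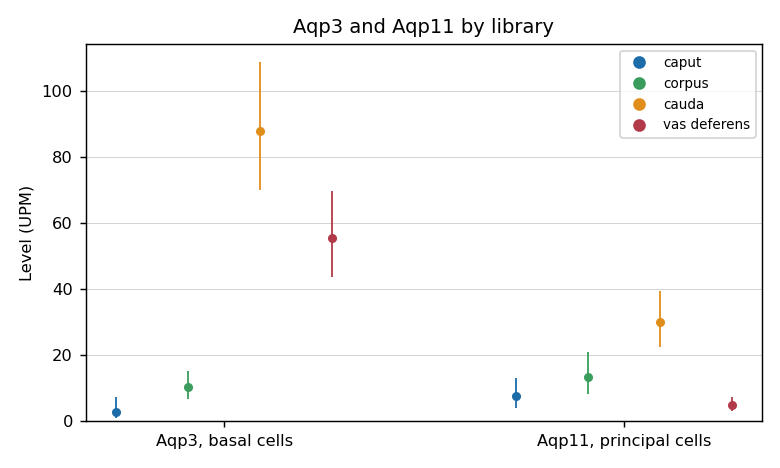
Level (UPM, linear axis) of *Aqp3* in basal cells and of *Aqp11* in principal cells, with 1 point for each library and its 95% Poisson interval. Both are highest in the cauda, at 87.8 and 29.9 UPM, and in the vas deferens *Aqp3* stays at 55.5 while *Aqp11* is at 4.91.

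The neighbours of *Aqp2* in the genome did not share its level. *Aqp5* (chr15:99590782-99594829) and *Aqp6* (chr15:99601400-99605477) follow it on the same strand. In principal cells *Aqp5* had 4 UMIs, 1 of them in the vas deferens, and *Aqp6* had 15, of which 13 were in the corpus and 0 in the vas deferens, where *Aqp2* had 12775. Of the 3 remaining genes, *Aqp4* had 8 UMIs, all in basal cells, *Aqp8* had 8, of which 7 were in principal cells, and *Aqp7* had 3.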

How the data were processed

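UMI counts were deposited by the authors as whole numbers for each gene and cell. Per the study's methods and the processing notes, reads were demultiplexed with bcl2fastq and aligned with HISAT2 2.0.4 to mm10 (the same assembly as GRCm38), UMIs were counted on RefSeq genes by ESAT without multimapping reads, barcodes were kept within limits of total UMIs, and UMIs attributed to ambient RNA were taken out of each cell with a modified SoupX. The counts before that step are not analysed here. Over all cells it took out 3.54% of UMIs (2.80% in the vas deferens to 4.48% in the caput). The deposited table of cells also gives each cell's size factor by scran, a ratio used only as an alternative, and the authors' cluster and population, which were used without re-clustering. The 7 cell types are the groups of those populations. Principal populations were given the study's numbers by correlating their levels over 1105 genes with its supplementary profiles, and no value was taken from these.

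Levels are sums of UMIs over cells, and they, their ratios and shares of cells have 95% intervals for counting error. With 1 library per region, no p-value was computed. A call needs at least 20 UMIs and at least 4 times every other group, with the others raised to a floor of 3 UMIs. The low-in-caput rule needs 2 times. These rules were tested on simulated data. Doublets were simulated per library, and the 178 cells (2.00%) most like them, at a rate of 0.8% per 1000 cells, were marked and kept. The members and all gene lists were chosen with earlier results of these data known. A gene of the lists is not reported here. The genes named are the members, the other aquaporin rows, the 5 genes most like each member and, for each list, those with the highest and lowest ratio. Further list members and the cells with and without a member were picked after their values were seen. Alternatives changed the averaging, size factor, depth, doublets, floor, thresholds, pseudocount and libraries. Positions come from GENCODE and windows before start sites from RefSeq GRCm38.p6, both matched by symbol for all 3 members. The software was matplotlib 3.10.9, scikit-learn 1.9.0, pandas 2.3.3, scipy 1.17.1 and numpy 2.4.6 under Python 3.11.15.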

Additional observations from a re-analysis of the deposited data

How the results depend on the processing

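Of 71 alternatives for 15 results, 40 left the value within its counting interval (or the count within 1.5 times), 29 moved it further and 2 turned a direction. The lead of endothelial over muscle cells in *Aqp1*, 7.44 times, was 5.77 with cells weighted equally. Leaving out each library gave 3.35 to 9.51, the lowest without the vas deferens, where the rule of 4 times was no longer met, and the highest without the cauda. The *Aqp2* ratio of vas deferens to cauda, 144, became 257 without called doublets. The *Aqp9* ratio of cauda to its nearest library, 1.10, turned to 0.803 with cells weighted equally and to 0.931 with the size factor, so the order of corpus, cauda and vas deferens is not settled, and the cause was not tested. The *Aqp9* lead of principal cells over the next type was 3.98 to 11.7 with a library left out. It was lowest without the vas deferens, where the rule was no longer met. There it is a ratio to immune cells with 0 UMIs, set at the floor of 3 UMIs.

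Shares followed depth and the UMIs required. For *Aqp1* in endothelial cells, 30.5% became 19.2% at 500 UMIs and 15.5% at 2 UMIs, and 27.5% to 35.0% with a library left out. For *Aqp2* in vas deferens principal cells, 62.4% became 48.4% at 500 UMIs, 55.7% undrawn and 47.2% at 2 UMIs. For *Aqp9* in principal cells, 5.54% became 2.37%, 10.1% and 0.317%. The 183, 251 and 143 genes called in endothelial, principal and vas deferens principal cells became 371, 555 and 748 at 2 times and 84, 145 and 42 at 8 times, where *Aqp1* no longer met the rule. Of the 5 genes most like each member, 2, 3 and 2 (*Aqp1*), 3, 3 and 2 (*Aqp2*) and 2, 2 and 0 (*Aqp9*) were shared with a pseudocount of 1, of 100 and over the 21 clusters. In alternatives added after seeing the data, *Aqp2* stood at 2860 UPM and 65.6% in principal 12 to 15 of the vas deferens, and leaving out cells with a shared barcode gave 7.41, 147, 1.11 and 10.8 for the 4 ratios.

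No paired analysis was possible because each region is 1 library and no result comes from a test. The intervals treat UMIs as independent and do not cover animals, dissection or differences between cells, so an *Aqp1* level that rests on 12 cells is less sure than its interval. In principal cells of a single epididymal library, a count of 0 allows a level of up to about 2 UPM.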

Other observations

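The vas deferens principal cells of at least 1000 UMIs were set apart by whether they had *Aqp2*, and the genes below were picked by size after the values were seen. The 208 cells without *Aqp2* had *Ptgds*, a prostaglandin synthase, at 1256 UPM against 17.4 UPM in the 565 cells with it, *Spink10*, a protease inhibitor, at 847 against 28.1, and *Defb28*, a defensin, at 2191 against 122. *Ptgds* was held by 35 of the 208 cells. Of these 208 cells, 42 lay outside principal 12 to 15, and *Gpx3*, highest in the cauda library among principal cells, moved with the split (1102 against 215 UPM). Within principal 12 to 15, the 166 cells without *Aqp2* had no *Ptgds* UMI and the 552 with it had 14, and the other levels lay closer, at 45.3 against 11.8 UPM for *Spink10*, 190 against 91.0 for *Defb28* and 258 against 168 for *Gpx3*. The higher *Ptgds* of cells without *Aqp2* was thus not seen within these populations. There, *Cartpt* was higher in the cells with *Aqp2*, at 211 against 73.1 UPM, held by 37 and 8 cells, as was *Elf5*, at 46.3 against 13.9 UPM. The cells with *Aqp2* were deeper, with a median of 5776 UMIs against 2076, and the part of depth was not tested.

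In endothelial cells of at least 1000 UMIs, the 82 with and the 118 without *Aqp1* had nearly the same median depth, 3261 and 3061 UMIs. *Ackr1*, a chemokine receptor of venules, had 197 UMIs in the cells with *Aqp1* and 1 UMI in those without. Over all endothelial cells, 22 of the 24 with *Ackr1* also had *Aqp1*, which held for 4 of 4 in the caput, 11 of 11 in the corpus, 2 of 2 in the cauda and 5 of 7 in the vas deferens. *Csf3*, a cytokine gene, was at 2124 against 88.7 UPM, held by 33 of the 82 and 12 of the 118 cells. Over all endothelial cells, those with *Csf3* also had *Aqp1* in 3 of 3 cells of the caput, 12 of 13 of the corpus and 4 of 5 of the cauda. In the vas deferens this held for 14 of 26. The cells without *Aqp1* had more of *Acta2*, a smooth muscle actin (452 against 35.1 UPM), and *Col3a1*, a collagen of stroma (223 against 5.40 UPM), whose part in the split was not tested. All these genes were picked after their values were seen.

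Of the 5 genes most like *Aqp2*, 3 lie in 1 stretch of chromosome 1 (chr1:65071525-65123351, RefSeq GRCm38.p6), which was looked at after the likeness was computed. It holds 4 protein-coding genes. *Crygc*, *Crygb* and *D630023F18Rik* stood at 2012, 196 and 84.8 UPM in vas deferens principal cells and at 28.2, 5.17 and 1.15 UPM in those of the cauda. The remaining one, *Cryga*, had 17 UMIs in principal cells, all in the vas deferens (3.63 UPM).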
